A study of Rattus norvegicus with 12 samples.

Results

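The nuclear genes for subunits of the mitochondrial respiratory chain and of ATP synthase were examined in RNA-seq of the left atrium of rats. Members were the genes with counts whose symbols follow the rat names for complex I (Nduf), complex II (Sdh), complex III (Uqcr), complex IV (Cox4 to Cox8) and complex V (Atp5) subunits. They were 84 of the 21239 genes with counts, 36 in complex I, 4 in complex II, 8 in complex III, 19 in complex IV and 17 in complex V. There were 12 libraries, 3 in each of 4 groups. Male WKY rats, the normotensive control strain, and spontaneously hypertensive rats (SHRs) were bought at 14 weeks of age and dosed for 4 weeks. Saline (7.5 ml/kg/day) was the agent of the WKY and SHR groups. The ARB group was SHRs on the angiotensin receptor blocker valsartan (30 mg/kg/day), and the ARNI group was SHRs on sacubitril/valsartan (60 mg/kg/day), in which a neprilysin inhibitor is added. Only 3 rats of the control strain were used, with no drug-treated WKY group, so drug effects were measured in SHRs alone. In the titles of the 6 saline libraries the strain words contradict the library names, and the strain label of the treated libraries is Wistar-Kyoto beside an SHR phenotype. Groups were taken from the library names.

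Complexes I, III and IV pass electrons from NADH to oxygen and pump protons across the inner mitochondrial membrane, complex II feeds in electrons from succinate, and complex V uses the proton gradient to make ATP. Heart muscle depends on this pathway for almost all of its ATP. Several complex IV subunits exist as a pair of isoforms from separate genes, of which the heart and muscle isoform (Cox6a2, Cox7a1, Cox8b) and the widely expressed isoform (Cox6a1, Cox7a2, Cox8a) take the same place in the enzyme. The subunits made from mitochondrial DNA, 13 in a list set beside the members, are not among the genes of the table, so every value here is for nuclear genes.

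All libraries are labelled left atrium, but they did not carry the same chamber markers. Myl7, the atrial myosin light chain, was at 0.889 to 15.9 CPM (the count of a gene after scaling all libraries to the same total) in the WKY group and at 9.67 CPM in ARNI replicate 2, against 4478 to 11547 CPM in the other 8 libraries. Myl2, the ventricular light chain, was at 3489 to 3776 CPM in the WKY group, 4161 CPM in ARNI replicate 2, 2298 CPM in SHR replicate 2 and 2573 CPM in ARB replicate 3, and at no more than 24.2 CPM in the other 6. The 5 ventricular markers together reached 43272 to 43595 CPM in the WKY group and 371 to 9833 CPM in the SHR group, and the 8 atrial markers 120 to 336 CPM and 27851 to 77403 CPM. In ARNI replicate 2 the ventricular sum was 18563 CPM, with Myh7 at 5907 CPM against 32130 to 32744 CPM in the WKY group. Of the atrial markers, Gja5 overlapped between the WKY (14.4 to 15.5 CPM) and SHR (7.79 to 23.7 CPM) groups. The other atrial markers were higher in every SHR library than in every WKY library. Strain and chamber markers therefore cannot be told apart between the SHR and WKY groups, and results are given with and without SHR replicate 2, ARB replicate 3 and ARNI replicate 2. The sum of 5 markers of cardiomyocytes of either chamber was 53989 to 72869 CPM over all libraries. White adipocyte markers reached 345 CPM in ARB replicate 2 and 186 CPM in ARNI replicate 3, against at most 22.1 CPM elsewhere, and the fibroblast sum was highest in SHR replicate 3 (2722 CPM). The mesothelial sum was 24.9 to 44.0 CPM in the WKY group, 42.9 CPM in ARB replicate 3 and 21.5 CPM in ARNI replicate 2, against 118 to 261 CPM in the other 7 libraries, SHR replicate 2 included. The erythroid sum was highest in ARB replicate 3 (1781 CPM), with 460 to 970 CPM for the WKY libraries and 112 to 502 CPM elsewhere, and the smooth muscle and brown adipocyte sums were highest in ARNI replicate 3 (682 and 332 CPM). The part of these cell types in the results was not tested. In bulk tissue, fewer cells of a type and less RNA per cell cannot be told apart.

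Subunit transcripts made up 4.45% to 4.63% of all counts in the WKY libraries. In the SHR group they made up 3.28%, 4.66% and 2.74% in replicates 1 to 3, in the ARB group 3.26%, 3.09% and 5.28%, and in the ARNI group 2.86%, 5.36% and 3.55%. The 6 libraries with almost no Myl2 all lay below the WKY group, and the 3 libraries of the SHR strain with Myl2 all lay above it. On library sizes scaled by edgeR's TMM method, SHR replicate 2 moved just below the WKY group (47112 against 47327 to 48318 CPM in sum), and the other 8 kept their side. Complex by complex, the 6 libraries with almost no Myl2 lay below the WKY group throughout. The 3 libraries with Myl2 lay above it in complexes I, IV and V, but SHR replicate 2 lay below it in complexes II and III and ARB replicate 3 in complex II. Relative to the WKY mean, summed complex II CPM was 57.9%, 90.6% and 52.8% in the SHR libraries, 56.8%, 57.9% and 89.1% in the ARB libraries and 55.4%, 107% and 72.1% in the ARNI libraries. Summed complex III CPM ran from 52.3% (SHR replicate 3) to 110% (ARNI replicate 2) of the WKY mean. The sums of complexes I, IV and V fell less far, to 58.5%, 62.6% and 64.5% of the WKY mean in SHR replicate 3, and rose to 117%, 133% and 117% in ARB replicate 3. Complexes II and III were thus the lowest of the 5 in each of the 9 libraries of the SHR strain. In the 6 with little Myl2 they stood at 52.3% to 72.1% and the other complexes at 58.5% to 80.8%. In the 3 with Myl2 they stood at 89.1% to 110% and the other complexes at 103% to 133%.

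**Figure D1:**
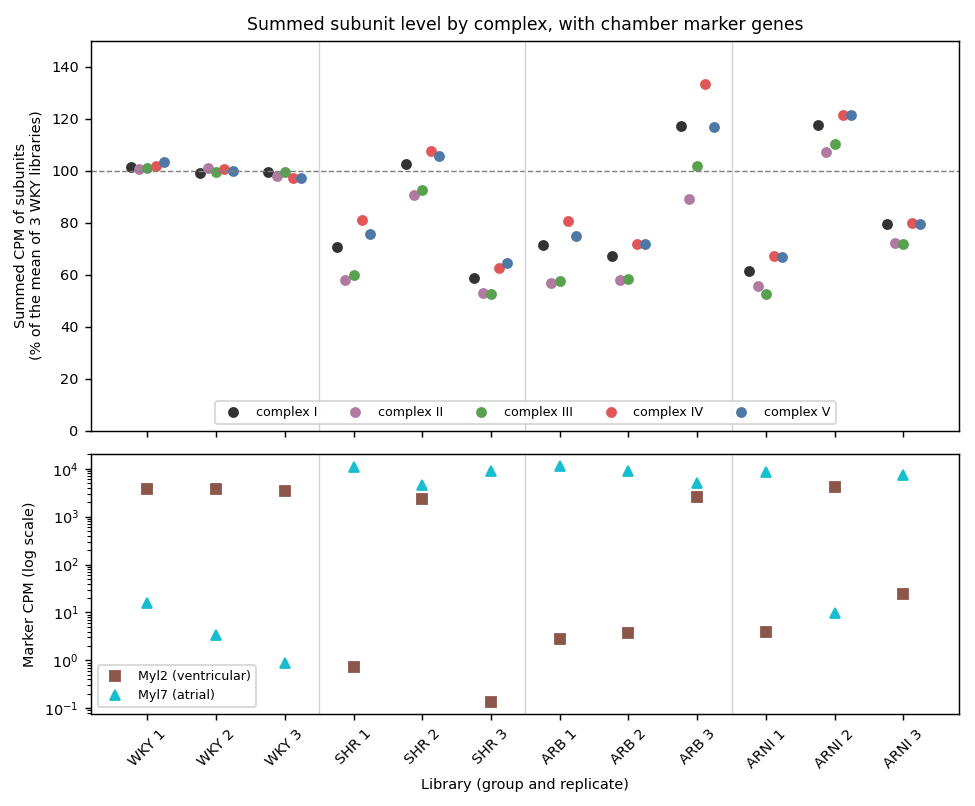
Summed CPM of the subunits of each complex as a percentage of the mean of the 3 WKY libraries (upper panel) and CPM of the chamber markers Myl2 and Myl7 on a log axis (lower panel), for each library. SHR replicate 2, ARB replicate 3 and ARNI replicate 2, which hold Myl2, reach 89.1% to 133% of the WKY mean, and the other 6 libraries of the SHR strain stay between 52.3% and 80.8%.

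The same libraries stood apart gene by gene. Among the 80 members with enough counts to test, SHR replicate 2 was the highest of its group in 74, ARB replicate 3 in 78 and ARNI replicate 2 in 74, against 26.5%, 30.4% and 24.5% of the 14002 genes at 1 CPM or more in at least 3 libraries. ARNI replicate 2 exceeded all 3 WKY libraries in 69 of 80 members (26.7% of all genes). It lay below all 3 in 4 members (42.4% of all genes), which were Ndufa10, Ndufb3, Uqcrb and Atp5if1. On TMM-scaled sizes it lay below all 3 in 2 members (34.7% of all genes), and Uqcrb was not 1 of them. SHR replicate 2, ARB replicate 3 and ARNI replicate 2 were then highest of their group in 76, 79 and 77 members, against 36.8%, 41.9% and 36.1% of all genes. SHR replicate 3 lay below all 3 WKY libraries in 74 members and ARNI replicate 1 in 72 (25.8% and 34.3% of all genes).

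**Figure D2:**
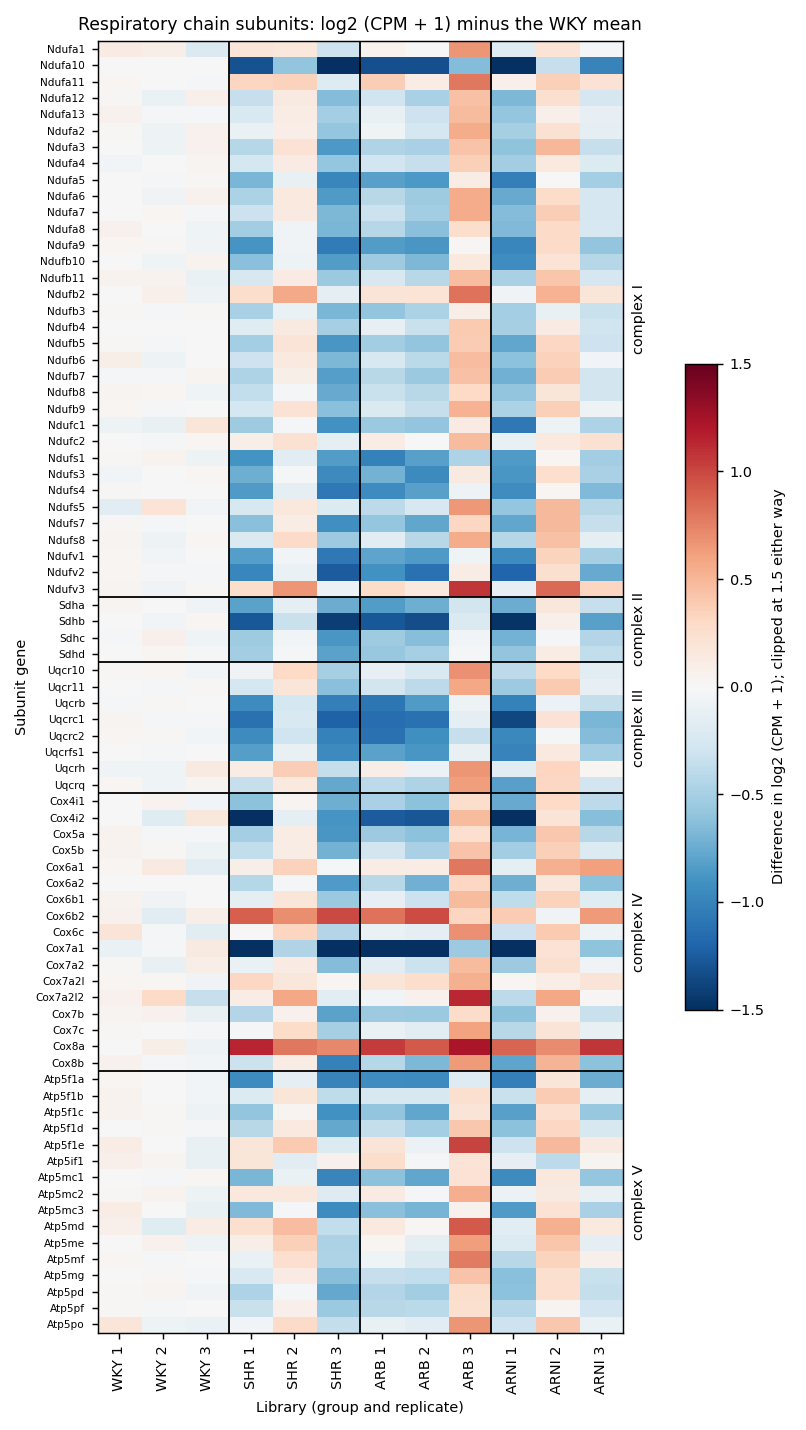
Levels of 79 of the 80 tested subunit genes (rows, by complex) in each of the 12 libraries (columns), as log2 (CPM + 1) minus the mean of the 3 WKY libraries. Most rows are blue in SHR replicates 1 and 3, ARB replicates 1 and 2 and ARNI replicates 1 and 3, while Cox8a is red in all 9 libraries of the SHR strain.

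The comparison of the SHR and WKY groups asks how subunit transcripts differ between the hypertensive and the normotensive strain. Of the 80 members tested, 3 passed an adjusted p of 0.05 in edgeR's quasi-likelihood test. Cox8a and Cox6b2 rose and Ndufa10 fell, where 12.3% of the 13794 genes tested were called higher and 8.26% lower. The members' share is thus below the background in both directions. Values were nevertheless lower in SHR for 70 of 80 members, with a median log2 fold change of -0.40 against 0.01 over all genes tested. The medians were -0.44 in complex I, -0.61 in complex II, -0.55 in complex III, -0.30 in complex IV and -0.29 in complex V. At the additional threshold of an absolute log2 fold change of 1, Cox6b2 (higher) and Ndufa10 (lower) remained, against 5.54% and 3.35% of all genes. The SHR and WKY values did not overlap for 2 members that were higher and 19 that were lower, against 33.7% and 15.9% of all genes. DESeq2 called 2 members higher and 15 lower of the 81 with any count. Of the 18705 genes with any count, including those left without an adjusted p, it called 9.92% higher and 9.6% lower. With DESeq2 the members' share was thus above the background for lower calls and below it for higher calls.

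The number of calls turned on 1 library. Without SHR replicate 2, edgeR called 57 of the 80 members, 55 of them lower, at a median log2 fold change of -0.71, while 18.6% of all genes were called lower and 19.2% higher. Lower calls then covered 28 of 35 members of complex I, 4 of 4 of complex II, 6 of 8 of complex III, 8 of 17 of complex IV and 9 of 16 of complex V. Cox8a and Cox6b2 were the only members called higher. The SHR libraries left in that fit had ventricular marker sums of 371 and 414 CPM, against 43272 to 43595 CPM in WKY. Strain and chamber markers therefore differ together in every result without SHR replicate 2. Leaving out any 1 of the WKY replicates instead gave 0 calls among the members. Calls among all genes also dropped in these fits, to 496 of 14138, 415 of 14149 and 418 of 14145, from 2837 of 13794 with the 6 libraries.

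**Figure D3:**
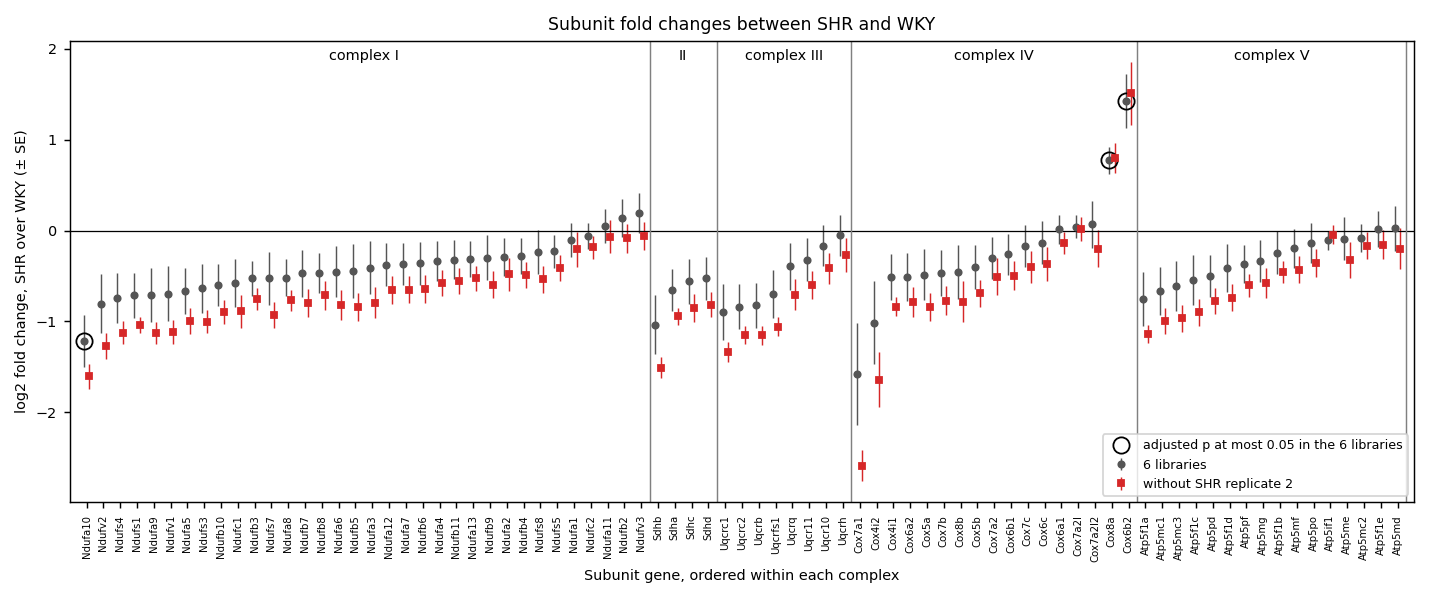
Log2 fold change of SHR over WKY with its standard error for 79 of the 80 tested members, from all 6 libraries (grey circles) and without SHR replicate 2 (red squares), with the 3 members called in the 6 libraries ringed. Leaving out that library moves nearly all members down, and Cox8a and Cox6b2 stay above 0.

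Complex I oxidises NADH in a module that holds Ndufv1, which binds the flavin, with Ndufv2 and Ndufs1, and hands electrons to ubiquinone near Ndufs7 and Ndufs8. These 3 genes passed the test, as lower, without SHR replicate 2, and none of the 3 did with it. Ndufs1 was at 987, 1010 and 924 CPM in WKY and at 521, 872 and 545 CPM in SHR, without overlap. Its log2 fold change was -0.71 (SE 0.25, edgeR adjusted p 0.0818), and -1.04 (SE 0.092, adjusted p 0.000447) without SHR replicate 2. Ndufv1 had -0.70 (SE 0.30) and Ndufv2 -0.80 (SE 0.33) in all 6 libraries, both without overlap between the groups and neither called. Without SHR replicate 2 these became -1.11 (SE 0.13) and -1.27 (SE 0.14). Near the ubiquinone site, the log2 fold change was -0.53 (SE 0.29) for Ndufs7 and -0.24 (SE 0.24) for Ndufs8, neither called and both overlapping. Ndufa4, which is counted here by its symbol although the protein belongs to complex IV, had -0.34 (SE 0.22). The highest value in complex I was that of the accessory subunit Ndufv3, at 0.19 (SE 0.22, adjusted p 0.547).

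Ndufa10, an accessory subunit, was the only member called lower in the 6 libraries. It was at 605, 599 and 605 CPM in WKY and at 243, 401 and 202 CPM in SHR, 241, 242 and 384 CPM in ARB and 212, 476 and 301 CPM in ARNI, so that all 9 libraries of the SHR strain lay below all 3 WKY libraries. Its log2 fold change in SHR was -1.21 (SE 0.29, edgeR adjusted p 0.0328). The table also lists Ndufa10l1, a gene named for its likeness to Ndufa10, which had 0 counts in the 3 WKY libraries and 54.0 to 119 CPM in the 9 others. Against a limit of 3 counts per WKY library, its mean was at least 276-fold higher in SHR. In the WKY libraries all counts of Ndufa10 were whole, and in the other 9 none were, for either gene, where RSEM, the authors' counter, writes fractional counts for genes that share reads. The share of Ndufa10l1 in the sum of the pair was nearly constant in those 9, at 18.9% to 21.9%. The pair summed to 605, 599 and 605 CPM in WKY, 303, 502 and 256 in SHR, 306, 303 and 473 in ARB and 271, 595 and 376 in ARNI. Summed before the fit, the log2 fold change in SHR was -0.89 (SE 0.29, edgeR adjusted p 0.0682), so the call was lost in the 6 libraries. Without SHR replicate 2, the sum still fell by 1.27 on the log2 scale (SE 0.13, adjusted p 0.000778).

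**Figure D4:**
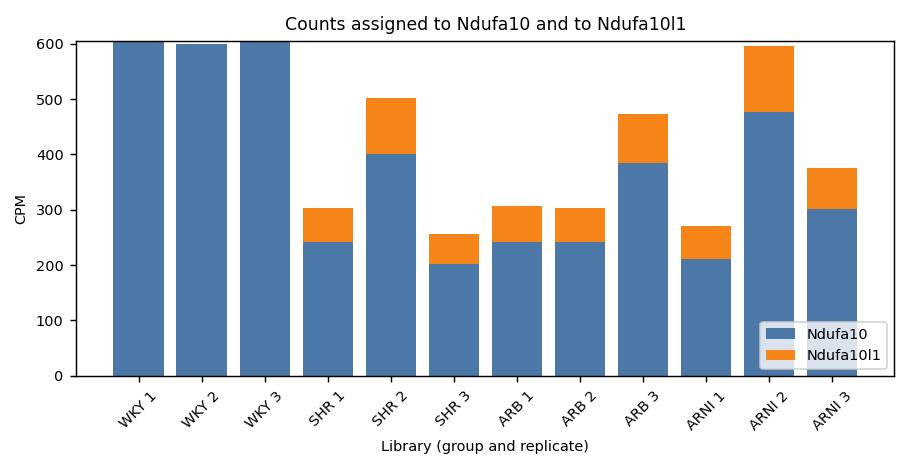
CPM assigned to Ndufa10 (blue) and to Ndufa10l1 (orange, stacked) in each of the 12 libraries. Ndufa10l1 is at 0 in the 3 WKY libraries and between 54.0 and 119 CPM in the other 9, and the stacked height of ARNI replicate 2 (595 CPM) comes close to the WKY libraries.

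Complex II oxidises succinate through the flavoprotein Sdha and the iron-sulfur subunit Sdhb, which Sdhc and Sdhd anchor in the membrane. All 4 members had lower values in SHR and none was called in the 6 libraries, while all 4 fell without SHR replicate 2. Sdhb was at 759, 734 and 770 CPM in WKY, 312, 599 and 282 CPM in SHR, 312, 300 and 650 CPM in ARB and 270, 798 and 429 CPM in ARNI. No SHR library reached the WKY range, and the Myl2-positive library was the highest in each group of the SHR strain. The log2 fold change of Sdhb was -1.04 (SE 0.32, edgeR adjusted p 0.0637), and -1.51 (SE 0.12, adjusted p 0.000297) without SHR replicate 2. Sdha had -0.66 (SE 0.23), Sdhc -0.56 (SE 0.25) and Sdhd -0.53 (SE 0.24), which became -0.95, -0.85 and -0.81 without that library.

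In complex III, electrons pass from ubiquinol to cytochrome c through the iron-sulfur protein Uqcrfs1, beside the core proteins Uqcrc1 and Uqcrc2 and the small subunit Uqcrb. No member was called in the 6 libraries. Uqcrb was at 377, 391 and 387 CPM in WKY, 199, 321 and 189 CPM in SHR, 181, 213 and 366 CPM in ARB and 190, 361 and 300 CPM in ARNI. It was, with Ndufa10, 1 of the 2 members below the WKY range in all 9 libraries of the SHR strain, although on TMM-scaled sizes the ranges touched (highest 399 CPM against a WKY lowest of 393). Its log2 fold change in SHR was -0.82 (SE 0.25, edgeR adjusted p 0.0567), and -1.16 (SE 0.10) without SHR replicate 2. Uqcrc1 had the lowest value in the complex, -0.90 (SE 0.31, adjusted p 0.0795), and Uqcrfs1 had -0.70 (SE 0.27). Uqcrh, the hinge protein, had the highest value, -0.05 (SE 0.23).

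Complex IV held both members that were called higher. Cox8a, the widely expressed isoform of the smallest subunit, was at 120, 128 and 114 CPM in WKY, 268, 209 and 199 CPM in SHR, 251, 229 and 281 CPM in ARB and 221, 197 and 253 CPM in ARNI. All 9 libraries of the SHR strain lay above all WKY libraries, with or without Myl2. Its log2 fold change in SHR was 0.77 (SE 0.15, edgeR adjusted p 0.0186), and 0.80 (SE 0.16, adjusted p 0.0107) without SHR replicate 2. Cox8b, the heart and muscle isoform, was at 406, 383 and 377 CPM in WKY, 309, 419 and 192 CPM in SHR, 289, 243 and 607 CPM in ARB and 225, 554 and 254 CPM in ARNI. Its values followed the bulk of the members, low in the libraries without Myl2 and at or above the WKY range in those with it. Cox8b was not called in the 6 libraries (log2 fold change -0.45, SE 0.30) and fell without SHR replicate 2 (-0.78, SE 0.23, adjusted p 0.0356).

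The 250 bases before the start of each gene are shown for this isoform pair, since its partners had opposite signs between the strains. Cox8a lies at chr1:213833624-213833873 and Cox8b at chr1:205408274-205408523, both on the minus strand, in RefSeq's GRCr8, a later build than the Rnor_6.0 of the submitters' processing notes. Capitals mark matches, on either strand, to the ETS family motif CCGGAAG, the core promoter motif TATAAA or the E-box CAGCTG.
Cox8a: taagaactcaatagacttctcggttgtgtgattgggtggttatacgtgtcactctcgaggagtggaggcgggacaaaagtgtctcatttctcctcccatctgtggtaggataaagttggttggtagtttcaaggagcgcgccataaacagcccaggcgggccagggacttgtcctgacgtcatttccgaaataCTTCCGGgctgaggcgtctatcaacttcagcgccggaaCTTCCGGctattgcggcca
Cox8b: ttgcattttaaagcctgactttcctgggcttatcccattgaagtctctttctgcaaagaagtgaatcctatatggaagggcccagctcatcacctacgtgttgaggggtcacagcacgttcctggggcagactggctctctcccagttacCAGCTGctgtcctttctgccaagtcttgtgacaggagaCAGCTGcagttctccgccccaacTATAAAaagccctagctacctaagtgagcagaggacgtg
The Cox8a stretch holds CCGGAAG, bound by the ETS family that includes GABPA, at 2 places, 57 and 19 bases before the start on the opposite strand. The Cox8b stretch holds TATAAA 39 bases before the start and the E-box CAGCTG, bound by myogenic factors, 100 and 62 bases before it. Of the members, 73 of 84 matched a promoter in the RefSeq table by gene ID, and the first entry of each gene was used. CCGGAAG was present in 20 of the 73 (27.4%) and in 7.74% of all 27457 promoters of that length. The median share of G and C bases was 55.6% in the 73 and 52% in all promoters, and its part in the motif counts was not tested. TATAAA was present in 7 members (13.1% of all promoters) and CAGCTG in 9 (11.9%). The nuclear receptor half-site AAGGTCA, bound by ESRRA, was present in 7 members (3.77%), the YY1 motif AAGATGGC in 2 (1.69%) and the MEF2 motif TATTTATA in 1 (1.69%). These motifs do not overlap one another in the stretches shown, and a match is a description of the letters.

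Cox6b2, known from testis, was the second member called higher, at a level near the limit of these libraries. It had 9, 6 and 9 counts in WKY, 32, 22 and 35 in SHR, 30, 34 and 14 in ARB and 19, 8 and 24 in ARNI. The SHR libraries lay above the WKY libraries, and the counts of ARNI replicate 2 lay within the WKY range. The log2 fold change in SHR was 1.43 (SE 0.29, edgeR adjusted p 0.0226). Its partner Cox6b1 had -0.26 (SE 0.23).

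Cox7a1, a heart and muscle isoform, had the lowest value of all members. The row of that symbol was at 13.4, 14.1 and 15.8 CPM in WKY, 2.64, 10.3 and 2.70 CPM in SHR, 2.98, 4.20 and 9.54 CPM in ARB and 2.27, 16.9 and 9.10 CPM in ARNI. The SHR libraries lay below the WKY libraries, and the log2 fold change was -1.58 (SE 0.56, edgeR adjusted p 0.0855). A further row, LOC687508, bears the ID that GRCr8 names Cox7a1, and neither row had a whole count in any library, nor did their sum. With which genes they share reads was not tested. Summed, the rows gave 37.9, 38.3 and 40.1 CPM in WKY and 11.4, 32.0 and 8.48 CPM in SHR, with a log2 fold change of -1.28 (SE 0.50, adjusted p 0.109). Without SHR replicate 2, the sum fell by 2.13 on the log2 scale (SE 0.17, adjusted p 0.000335). The symbol Ndufs6 is likewise affected, since its row had 0 to 3.68 counts and GRCr8 gives the name to the ID listed as LOC679739, at 96.0 to 220 CPM.

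Of the other isoform members, Cox6a2 was at 2868, 2876 and 2888 CPM in WKY and 2134, 2853 and 1598 CPM in SHR, without overlap, with a log2 fold change of -0.51 (SE 0.27, not called). Cox6a1, its widely expressed partner, was at 173, 185 and 151 CPM in WKY and 180, 215 and 166 CPM in SHR, overlapping, with 0.01 (SE 0.16). Cox4i1 had -0.51 (SE 0.25), and Cox4i2, an isoform known from lung and from low oxygen, had -1.01 (SE 0.46) at 1.58 to 15.0 CPM over all libraries. Cox7a2 had -0.30 (SE 0.23). Cox7a2l, which helps to join complexes III and IV, had 0.04 (SE 0.12), with 171, 171 and 163 CPM in WKY and 209, 190 and 171 CPM in SHR.

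Ratios within a library need no scaling between libraries. The log2 ratio of Cox8b to Cox8a was 1.76, 1.58 and 1.73 in WKY, 0.21, 1.001 and -0.05 in SHR, 0.21, 0.09 and 1.11 in ARB and 0.02, 1.49 and 0.01 in ARNI. It was thus lower in each of the 9 libraries of the SHR strain than in WKY, and highest within each group in the Myl2-positive library. The ratio of Cox6a2 to Cox6a1 was 4.05, 3.96 and 4.26 in WKY and 3.57, 3.73 and 3.27 in SHR. Of all libraries it was lowest in ARNI replicate 3 (2.85). The ratio of Cox7a1 to Cox7a2 was -3.59 ± 0.11 (SD, n = 3) in WKY and -5.15 ± 0.88 in SHR. It was taken from the row with the symbol Cox7a1 alone, without LOC687508, which held more counts in WKY (287, 279 and 273 against 157, 162 and 178). It is therefore not a measure of the balance of the 2 isoforms. The ratio of Cox6b2 to Cox6b1 was -9.54 ± 0.28 in WKY and -7.84 ± 0.59 in SHR, and that of Cox4i2 to Cox4i1 was -6.77 ± 0.24 and -7.41 ± 0.71. The first 4 of these pairs did not overlap between SHR and WKY. In a two-sided exact permutation test each had p = 0.1, the smallest that 3 libraries against 3 allow, and 0.5 after adjustment over the 20 tests of 5 pairs in 4 comparisons. The 15 tests between the ARB, ARNI and SHR groups had exact p-values of 0.3 to 1.0.

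**Figure D5:**
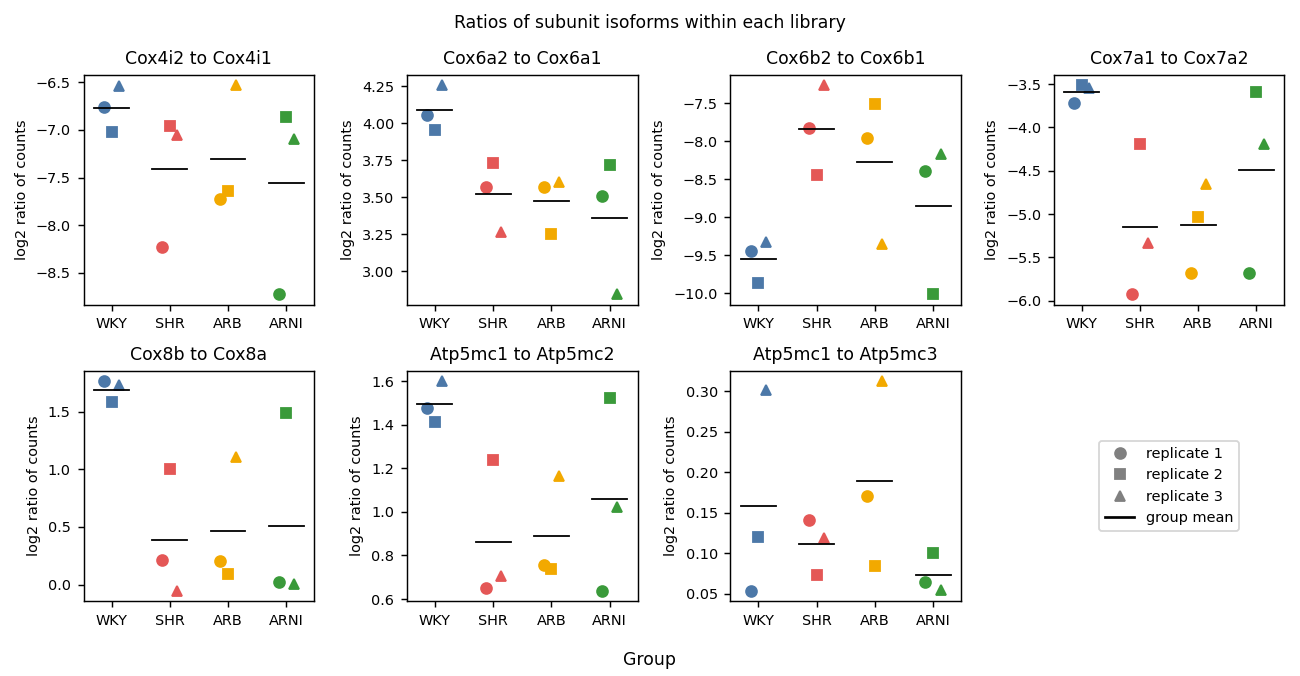
Log2 ratio of counts of isoform pairs within each library, with marker shapes for replicates and a line at each group mean, for 5 complex IV pairs and for the genes of ATP synthase subunit c. The ratio of Cox8b to Cox8a lies between 1.58 and 1.76 in WKY and between -0.05 and 1.49 in the other 9 libraries.

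In complex V, Atp5f1a and Atp5f1b form the catalytic ring, and the genes Atp5mc1, Atp5mc2 and Atp5mc3 encode the same mature subunit c of the membrane rotor. No member was called in the 6 libraries. Atp5f1a was at 4228, 4146 and 4016 CPM in WKY and 2140, 3771 and 2064 CPM in SHR, without overlap, and had the lowest value of the complex (-0.75, SE 0.30, edgeR adjusted p 0.115). Atp5f1b, which joins it in the ring, overlapped, at 5813, 5600 and 5454 CPM in WKY and 4866, 6351 and 4303 CPM in SHR (-0.24, SE 0.24). The subunit c genes also differed among themselves. Atp5mc1 had -0.66 (SE 0.26) without overlap, Atp5mc3 had -0.61 (SE 0.28), and Atp5mc2 had -0.08 (SE 0.16). Without SHR replicate 2, Atp5mc1 (-0.99) and Atp5mc3 (-0.97) were called lower and Atp5mc2 (-0.17, SE 0.15, adjusted p 0.418) was not. The log2 ratio of Atp5mc1 to Atp5mc2 was 1.48, 1.41 and 1.60 in WKY, 0.65, 1.24 and 0.71 in SHR, 0.76, 0.74 and 1.17 in ARB and 0.64, 1.52 and 1.02 in ARNI. The ratio of Atp5mc1 to Atp5mc3 stayed between 0.05 and 0.31 in all 12 libraries. Atp5if1, the inhibitor of the enzyme, was at 95.0, 93.0 and 83.4 CPM in WKY and 102, 80.4 and 94.4 CPM in SHR (-0.11, SE 0.11), and it was lowest of all libraries in ARNI replicate 2 (68.4 CPM). The highest value of the complex was that of Atp5md, 0.02 (SE 0.25).

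Genes that assemble, supply or regulate the chain were set beside the members in 8 further lists with counts. Of their 101 genes tested, edgeR called 3 higher (2.97%) and 14 lower (13.9%) between SHR and WKY, against 12.3% and 8.26% of all genes. Without SHR replicate 2, 2 rose (1.98%) and 67 fell (66.3%), against 19.2% and 18.6% of all genes. With the 9 libraries of the SHR strain against WKY, 3 rose (2.97%) and 10 fell (9.9%), against 11.3% and 8.55% of all genes. Without the 3 that hold Myl2, 2 rose (1.98%) and 73 fell (72.3%), against 22.1% and 20.7% of all genes. Among the 18 electron carriers and coenzyme Q genes, 4 fell and 1 rose. Coq3, an enzyme of coenzyme Q synthesis, had a log2 fold change of -1.09 (SE 0.30), and Coq5, a methyltransferase of the same pathway, -0.97 (SE 0.26). None of the 4 was called with the 9 libraries, where Coq3 had -0.97 (SE 0.33, edgeR adjusted p 0.0590) and Coq5 -0.79 (SE 0.34, adjusted p 0.116). Of 18 regulators 4 fell, which were Ppargc1b (-1.26, SE 0.30), Ppara (-1.04, SE 0.28), Polrmt, the mitochondrial RNA polymerase (-0.94, SE 0.15), and Ppargc1a, a coactivator of mitochondrial genes (-0.64, SE 0.17). Ppargc1a was not called with the 9 libraries (-0.52, SE 0.18, edgeR adjusted p 0.0681). With the 9 libraries 4 of the 18 regulators were also called lower, but not all the same ones. Of 21 complex IV assembly genes, Pet100 (1.08, SE 0.23) and Cox16 rose and Cox18 and Taco1 fell. Ttc19 (-0.99, SE 0.16) and Bcs1l fell among 6 complex III assembly genes, Tmem186 among 17 for complex I and Atpaf1 among 5 for complex V. None of 4 complex II assembly genes and none of 12 membrane carriers was called. The lists' medians ran from -0.26 to -0.68.

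With all 9 libraries of the SHR strain set against WKY, the same 3 members were called. Cox8a had a log2 fold change of 0.86 (SE 0.14, edgeR adjusted p 0.0052), Cox6b2 1.11 (SE 0.32, adjusted p 0.0379) and Ndufa10 -1.09 (SE 0.29, adjusted p 0.0301). Of 14452 genes, 11.3% were called higher and 8.55% lower, and with the fold threshold 4.23% and 2.77%, which Cox6b2 and Ndufa10 passed. Groups did not overlap for Cox8a (higher) and for Ndufa10 and Uqcrb (lower), against 9.81% and 6.57% of all genes. The members' median was -0.24. Cox7a1 had the lowest value (-1.22, SE 0.58, not called). In the other complexes the lowest values were those of Sdhb (-0.85, SE 0.38), Uqcrc2 (-0.73, SE 0.27) and Atp5f1a (-0.64, SE 0.33), and the highest those of Ndufv3 (0.35, SE 0.30), Sdhd (-0.42, SE 0.23), Uqcrh (0.05, SE 0.24) and Atp5md (0.17, SE 0.28), none of them called. Without the 3 Myl2-positive libraries of the SHR strain, 58 members were called lower and 2 higher, where 20.7% and 22.1% of all genes were called, and the median was -0.60. With the Ndufa10 and Ndufa10l1 rows summed, the log2 fold change was -0.76 (SE 0.29, adjusted p 0.0889).

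The comparisons of the treated groups ask how each drug altered these transcripts in SHRs. The ARB and ARNI groups share the SHR libraries as their control. In ARB against SHR, ARNI against SHR and ARNI against ARB, edgeR called 0 of 80 members and 0% of all genes, and 0 members had an unadjusted p under 0.05 in each, while 225, 227 and 539 of all genes did. DESeq2 also called 0 members, and 3, 9 and 23 genes in all. The members' medians were 0.21, 0.23 and 0.01 on the log2 scale. The median member level of a library, also on the log2 scale, varied within the groups of these comparisons with a pooled SD of 0.53, 0.52 and 0.55. Direction depended on the Myl2-positive libraries. The median in ARB against SHR was -0.16 without ARB replicate 3 and 0.50 without SHR replicate 2, and in ARNI against SHR it was -0.15 without ARNI replicate 2 and 0.51 without SHR replicate 2. With those libraries left out on both sides, the medians were 0.12, 0.13 and 0.01, and 0 members were called.

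In ARB against SHR, complex I ran from -0.13 (Ndufs1) to 0.33 (Ndufa6), complex II from -0.04 (Sdha) to 0.11 (Sdhb), complex III from -0.01 (Uqcrc2) to 0.33 (Uqcrq), complex IV from -0.18 (Cox6b2) to 0.45 (Cox4i2) and complex V from 0.02 (Atp5f1a) to 0.35 (Atp5f1e), all log2 fold changes. In ARNI against SHR, complex I ran from 0.04 (Ndufb4) to 0.41 (Ndufv1), complex II from 0.16 (Sdhc) to 0.43 (Sdhb), complex III from 0.08 (Uqcr10) to 0.42 (Uqcrc1), complex IV from -0.79 (Cox6b2) to 0.95 (Cox7a1) and complex V from -0.11 (Atp5if1) to 0.30 (Atp5f1a). In ARNI against ARB, the extremes were Ndufa1 (-0.21) and Ndufs1 (0.42) in complex I, Sdhc (0.08) and Sdha (0.41) in complex II, Uqcr10 (-0.17) and Uqcrc1 (0.33) in complex III, Cox6b2 (-0.60) and Cox7a1 (0.84) in complex IV, and Atp5if1 (-0.26) and Atp5f1a (0.29) in complex V. None of these passed the test. Cox7a1 was at 16.9 CPM in ARNI replicate 2 against 2.27 and 9.10 CPM in its group.

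The remaining members are given by name. Atp5pb, Cox7b2 and Cox8c had 0 counts in all 12 libraries, which allows up to 0.190 to 0.267 CPM, and Ndufb1 is listed without counts. The 0 of Atp5pb stands beside 318 to 650 CPM for Atp5pd, another complex V member. Whether reads of Atp5pb were assigned to another row was not tested, so its 0 is not read as absence of the transcript.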

How the data were processed

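RNA from 12 rat left atrium libraries was sequenced by the authors as single-end reads on a BGIseq-500. They filtered reads with SOAPnuke, aligned them with HISAT2 2.0.4 and Bowtie2 2.2.5 (the build in the submitters' processing notes is Rnor_6.0), and deposited expected counts from RSEM, which split reads that match several genes. The authors' columns of log2 fold change and p-value from their own comparison were not used. Of 37246 genes listed, 16007 have no counts. In 22 of 84 members at least 1 count was not whole (tolerance 0.005).

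Expected counts were rounded, filtered with filterByExpr, scaled by TMM and tested with edgeR 4.0.16 (quasi-likelihood, R 4.3.3) on the 6 libraries of each pair, with Benjamini-Hochberg adjustment over all genes tested. DESeq2 1.42.0, its size factors, no scaling, no filter, a replicate block and leaving out each library were alternatives. Isoform ratios used counts plus 0.5. Total counts were 11252361 to 15823525 per library, and 3 counts stood for 0.190 to 0.267 CPM, which covers counting error only. The study's methods give 3 rats per group, and p-values set a group difference against the variation between these libraries.

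Named were the isoform, Sdh, catalytic and subunit c genes, the extremes of each complex, called members and those apart in all 12 libraries. Members and lists were chosen with earlier results of these data known. Same-numbered libraries deviated together only in ARNI against SHR (r of 0.51, 0.46 and 0.19), where the paired fit with a replicate block also called 0 members. 1 gene is counted but not reported here.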

Additional observations from a re-analysis of the deposited data

How the results depend on the processing

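Between SHR and WKY, the count of members called was 3, and it was 3 or within 1.5 times of it without a filter, without scaling, with DESeq2's size factors and with all 12 libraries in 1 fit. DESeq2 called 17 (4 past the fold threshold), and a replicate block, although the numbers do not pair these groups (r of 0.03, -0.05 and -0.07), called 0 (0 past the threshold). Of all genes, DESeq2 called 3651 of 18705 and the replicate block 1030 of 13794. All 12 libraries in 1 fit left 1 member past the threshold. Leaving out 1 library gave 0 to 57 called and 0 to 16 past the threshold. The lowest counts came without a WKY replicate (0 each) and without SHR replicate 1 (1), the highest without SHR replicate 2. Calls among all genes ran from 415 of 14149 (without WKY replicate 2) to 5310 of 14035 (without SHR replicate 2). The members' median ran from -0.71 to -0.18.

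For the 9 libraries of the SHR strain against WKY, DESeq2 called 5 members, and 3814 of 19203 genes in all. No filter and a replicate block each left 1 past the fold threshold. Leaving out 1 library gave 1 to 11 called and 0 to 3 past the threshold, with the most called without ARNI replicate 2. Calls among all genes ran from 452 of 14778 (without WKY replicate 3) to 4719 of 14794 (without ARNI replicate 2). The members' median ran from -0.37 to -0.17. Leaving out SHR replicate 2, ARB replicate 3 and ARNI replicate 2, a choice made after seeing the data, gave 60 called and 12 past the threshold.

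In the drug comparisons 0 members were called under every alternative run, and leaving out 1 library moved the medians between -0.16 and 0.50 (ARB against SHR), -0.15 and 0.51 (ARNI against SHR) and -0.36 and 0.40 (ARNI against ARB). Without scaling, the median of all genes in SHR against WKY was 0.15, against 0.01 with TMM. Of 31 named members, at most 2 changed sign under any alternative for either comparison with WKY. The summed rows of Ndufa10 and of Cox7a1 and the further lists without Myl2-positive libraries were also chosen after seeing the data.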
